A study of Arabidopsis thaliana with 116 samples.

Results

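Oleosins are the coat proteins of seed oil bodies, the droplets in which an oilseed embryo stores triacylglycerol. Each oleosin holds a long hydrophobic hairpin, bent at a proline knot, that reaches into the oil, and its ends lie flat on the droplet surface. The coat keeps the droplets small and apart, and it is broken down after germination so that lipases can reach the oil. The 3 oleosin genes described here are OLEO3 (AT5G51210, chromosome 5), AT3G01570 (chromosome 3) and AT2G25890 (chromosome 2) of Arabidopsis thaliana, taken by name from the probe set annotation. They are 3 of the 13286 genes that have a probe set of their own in the table used, and each is read by 1 probe set, a group of short oligonucleotides that together give 1 value per array.

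The measurements come from developing seeds of 116 recombinant inbred lines, largely homozygous mosaics of the accessions Col-0 and C24. The line names carry the letter Q (59 lines) or R (57 lines) for the direction of the founding cross, and the labels used here do not state which letter stands for which direction. Each line was grown as 6 plants, and 8 siliques per plant, whose flowers had opened 10 to 11 days before, gave a pool of 200 mg of seed for 1 array. Seed had been stratified for 3 days, days were 16 h long at 20 °C, nights lasted 8 h at 16 °C, and no line received a treatment. The parents were not analysed here. With 1 array per line, each p-value measures the spread between lines, and the error of a single line's value is unknown.

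The arrays were alike in scale, with medians between 5.84 and 5.99 on the log2 scale. An array's median correlation with all the others was typically 0.987. It was lowest in R162, at 0.973, and next lowest in R079, at 0.981. R162 was also the lowest line for AT2G25890. The cross comparison, the marker changes and several correlations of that gene are therefore also given without R162. The marker-by-letter term and the fits with a further marker were run only with R162. R079 was the 4th lowest line for AT2G25890, at 9.39, and no setting without R079 was run. Among the 5 storage protein genes measured, mean signals ran from 5.42 (AT2G18540) to 13.43 (the cupin gene AT1G03890), and the 11 late embryogenesis genes ran from 4.19 (AT3G53040) to 12.10 (LEA). The endosperm markers AGL62 and IKU2 averaged 3.24 and 4.35, and the seed coat gene BAN (anthocyanidin reductase) averaged 8.68. Whole seeds were ground, so fewer cells of a type and less RNA per cell cannot be told apart in any value below.

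OLEO3, a seed oleosin, had a log2 signal of 13.004 in its lowest line (Q202), a median of 13.28 and 13.46 in its highest line (Q000). All 116 lines therefore lay within 0.45 of each other, and 26 of the 22746 probe sets tested had a higher mean. AT3G01570, the other seed oleosin with a signal near the top of the table, ran from 13.66 (again Q202) through a median of 13.81 to 13.95 (R116). Its SD over lines was 0.056, against 0.10 for OLEO3, and 99.97% of probe sets had a larger SD. AT2G25890 ran from 9.19 (R162) through a median of 10.03 to 10.65 (R174), a range of 1.45. Its SD of 0.33 was exceeded by 10.7% of probe sets.

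Probes differ in affinity, so a place in the order of signals says how bright a probe set was, not how much transcript its gene had relative to others. The narrow spread of the seed oleosins is partly shared with other bright probe sets: the 36 with a mean of at least 13 had SDs from 0.032 to 0.44, with a median of 0.10, and no value in the table exceeded 14.32. Among these 36, 16 varied more than OLEO3 and 31 varied more than AT3G01570. How far signal near the top of the scale is compressed was not tested. The 5 lowest lines for OLEO3 and the 5 lowest for AT3G01570 had Q202 and Q021 in common, and their 5 highest lines had none in common.

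**Figure D1:**
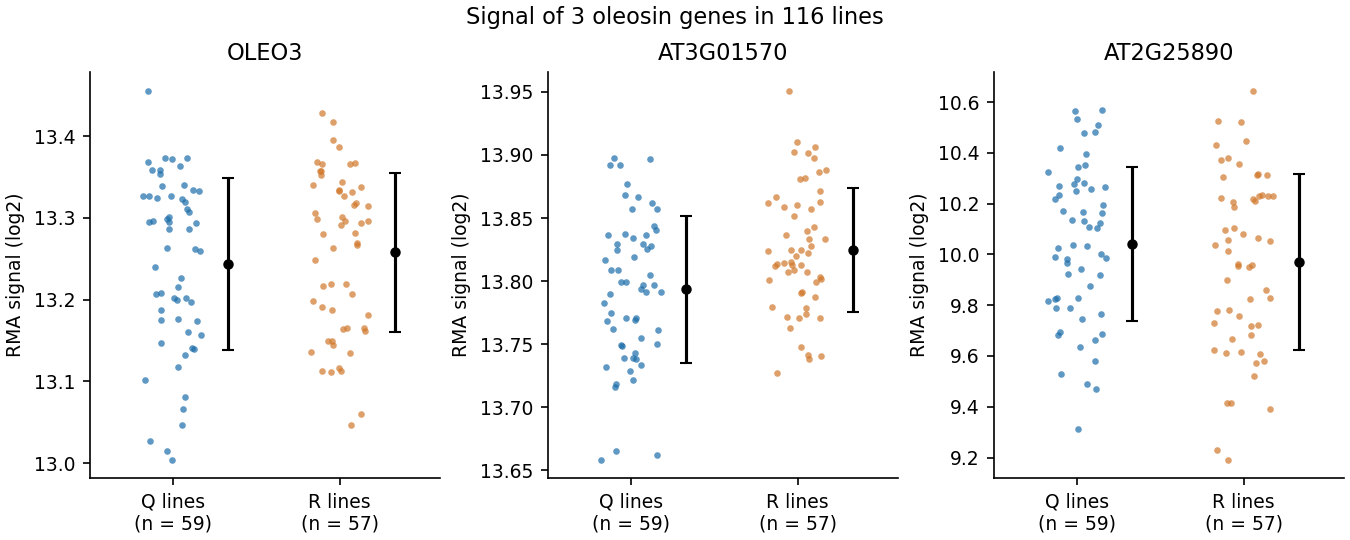
Log2 signal of OLEO3, AT3G01570 and AT2G25890 in each line (points, each gene on its own axis), split into Q lines (n = 59) and R lines (n = 57), with the mean and SD as black bars. The Q and R lines overlap for all 3 genes, and AT2G25890 spans 1.45 on the log2 scale where AT3G01570 spans 0.29.

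The direction of the founding cross was compared first. In Q lines the OLEO3 signal ran from 13.004 to 13.46, with a mean of 13.24 ± 0.11 (SD, n = 59), and in R lines the mean was 13.26 ± 0.097 (SD, n = 57). AT3G01570 averaged 13.79 ± 0.058 (SD, n = 59) in Q lines and 13.82 ± 0.050 (SD, n = 57) in R lines. AT2G25890 averaged 10.04 ± 0.30 (SD, n = 59) and 9.97 ± 0.35 (SD, n = 57). The letters overlapped over most of the range of each gene.

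None of the 3 oleosin genes passed an adjusted p of 0.05 in limma, fitted over all probe sets with Benjamini-Hochberg adjustment, where 3.07% of probe sets did. The Q minus R difference in log2 signal was -0.014 ± 0.019 (SE; limma adjusted p = 0.746) for OLEO3, with a 95% interval from -0.052 to 0.024. For AT2G25890 it was 0.072 ± 0.060 (SE; limma adjusted p = 0.55), with an interval from -0.047 to 0.19, and without R162 it was 0.058 (limma adjusted p = 0.657). For AT3G01570 it was -0.031 ± 0.011 (SE; limma adjusted p = 0.0886, unadjusted p = 0.00503). Its 95% interval, from -0.053 to -0.0096, left out 0, but the intervals are not adjusted for the number of probe sets. That gene's difference became -0.038 with a limma adjusted p of 0.0393 when each array was centred on its median, so its call rests on the scaling.

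The main question put to these lines was how the signal of each oleosin gene followed the parental alleles along the genome. Genotypes are not part of the files used, so 124 marker genes were taken whose own signal falls into 2 well separated modes over the lines, 30, 19, 22, 21 and 32 of them on chromosomes 1 to 5. A line in the upper mode of a marker is taken to carry 1 parent's allele near that gene, and a line in the lower mode the other's; which parent is which was not assigned. Each change below is the difference in log2 signal between the upper and the lower mode of the marker, with the letter in the fit, and the limma p-values are adjusted over all pairs of marker and probe set. A marker reads a long stretch of chromosome, not a gene, and distances are given as places in the order of annotated genes.

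OLEO3 followed chromosome 5 closely. Its lead marker, the one with the smallest p, was AT5G51490, a pectin methylesterase gene 30 places after OLEO3. The 63 lines in the lower mode of that marker had OLEO3 signals from 13.16 through a median of 13.33 to 13.46, and the 53 in the upper mode from 13.004 through 13.17 to 13.37. The modes overlapped, since 30 of the 53 upper-mode lines lay above the lowest of the lower-mode lines, but 61 of the 63 lower-mode lines lay above the upper-mode median. Of the 53 upper-mode lines, 1 lay above the lower-mode median.

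The change at AT5G51490 was -0.15 ± 0.014 (SE; limma adjusted p = 6.56e-16), a signal 1.11-fold lower in the upper mode. Being called at 1 marker or more sets no gene apart in these lines, because 67.6% of all probe sets were. The strength of the relation was less common: 5.14% of probe sets had a larger t at their lead marker than OLEO3, and 2 of the 36 probe sets with a mean of at least 13 did. A lead marker that was called and lay within 600 places on the gene's own chromosome was found for 23.3% of the named nuclear probe sets. The marker took up 52.2% of the variance of OLEO3 between lines, beyond the 0.498% of the letter.

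The relation fell off with distance along the chromosome, though not evenly on both sides of OLEO3. AT5G51500, a further pectin methylesterase gene 31 places away, gave -0.14, and AT5G50350, on the other side of OLEO3, gave -0.14. AT5G47250, 523 places away, gave 0.14, its lower mode being the one with less OLEO3. AT5G43430 at 1042 places gave -0.10 and AT5G38180 at 1777 places gave -0.070. These last 3 markers lie before OLEO3. After it, AT5G54020 at 352 places gave -0.11, a smaller change than that at AT5G47250, which is farther away. In all, 21 of the 32 markers on chromosome 5 were called by limma, and the 11 that were not are those from AT5G02230 to AT5G24760, the nearest 3464 places away.

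Lines that changed mode close to OLEO3 were few. Of 112 lines read clearly at both AT5G50350 and AT5G51490, 3 were in different modes, or 2.68%. Q139, in the lower mode at AT5G50350 and the upper at AT5G51490, had an OLEO3 signal of 13.16. Q170 and R013, the other way round, had 13.29 and 13.16. Q170 and R013 share their modes at both markers and differ in OLEO3, so these lines do not place the relation on either side of the gene.

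**Figure D2:**
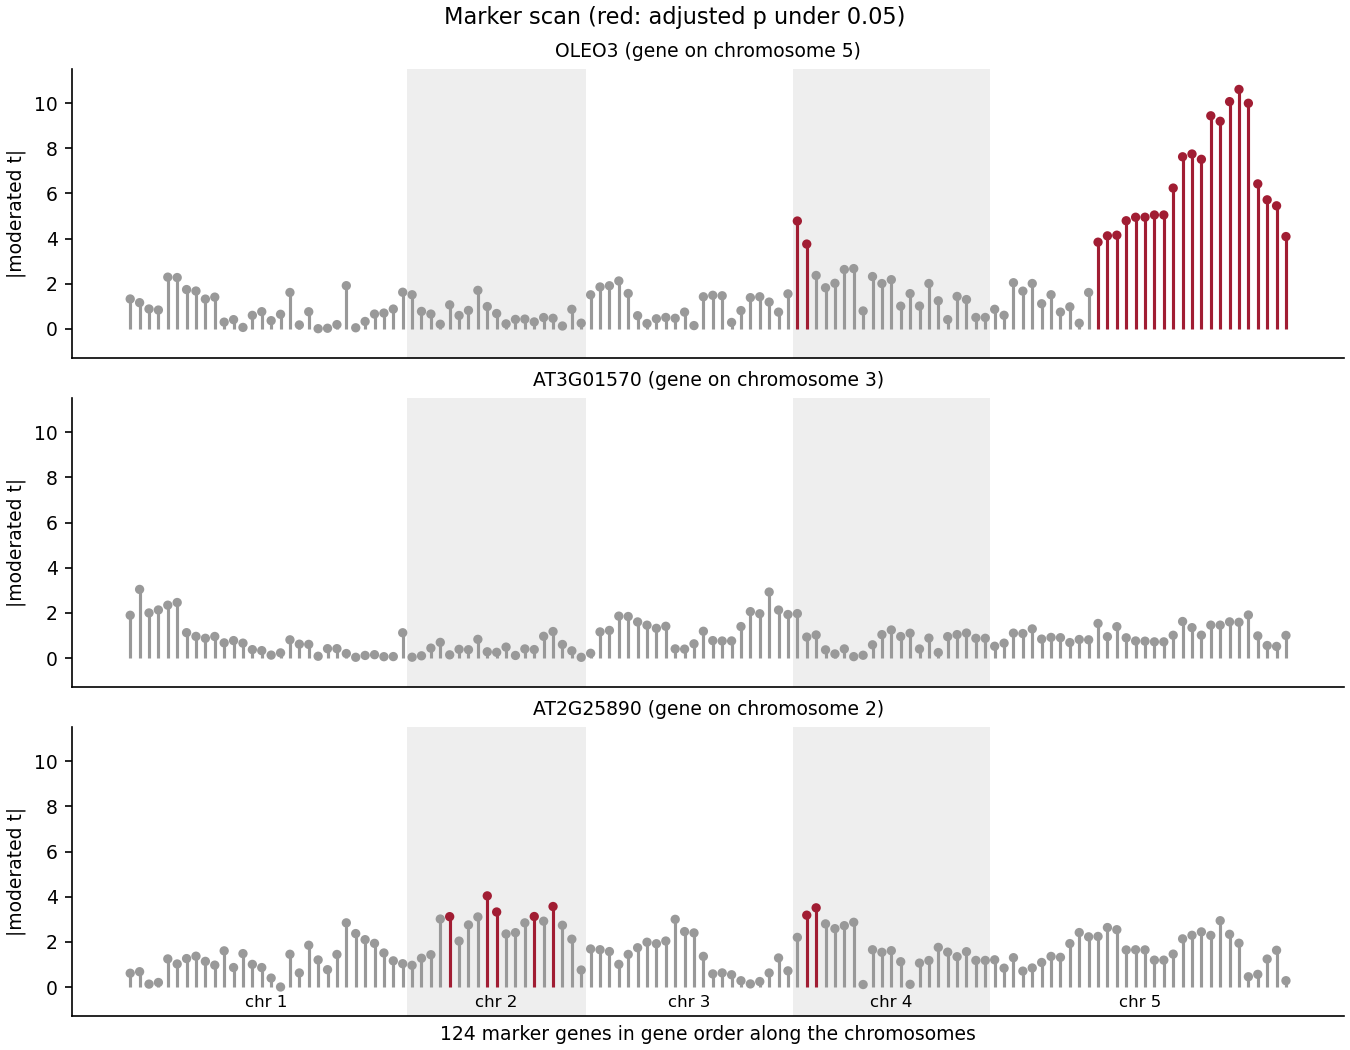
Size of limma's moderated t for each oleosin gene at each of the 124 marker genes, in gene order along chromosomes 1 to 5 (grey and white bands); red marks pairs with an adjusted p under 0.05. OLEO3 peaks at 10.6 near its own place on chromosome 5 and has 2 called markers at the start of chromosome 4, AT3G01570 has none called, and AT2G25890 has 5 on chromosome 2 and 2 on chromosome 4.

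The probe set values do not show whether the OLEO3 transcript differed or whether a sequence difference between the parents under the probes changed the hybridisation; for a relation at the gene's own place the readings cannot be told apart. The measured neighbours give the local context. AT5G51180 (4 places before) changed by -0.063 (limma adjusted p = 0.314) and AT5G51170 (8 places before) by -0.027 (limma adjusted p = 0.673) at AT5G51490. AT5G51220, the next gene after OLEO3, gave 0.063 (limma adjusted p = 0.0764), and AT5G51250 (3 places after) gave -0.062 (limma adjusted p = 0.174). None of the 4 was called, where 5.69% of all probe sets were called at this marker, 2.59% higher and 3.1% lower in the upper mode.

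The start of chromosome 4 was the other region that OLEO3 followed. At AT4G02540 the 75 lower-mode lines ran from 13.07 through a median of 13.30 to 13.46, and the 41 upper-mode lines from 13.004 through 13.20 to 13.42. The overlap was wide, with 58 of the 75 lower-mode lines above the upper-mode median. The change was -0.088 ± 0.019 (SE; limma adjusted p = 0.000417), and 12.5% of all probe sets were called at that marker, 5.58% higher and 6.92% lower in the upper mode. With AT5G51490 in the fit the change at AT4G02540 was -0.071 ± 0.013 (SE; limma adjusted p = 3.69e-05), and it added 11.1% of the variance, for 63.8% in all. At least 1 further marker was called in that fit for 65.6% of probe sets. No further marker on chromosome 5 was called, the closest being AT5G47250 with a limma adjusted p of 0.459.

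Sorting the lines by both markers ordered the OLEO3 signal in 4 steps. It averaged 13.33 ± 0.045 (SD, n = 44) in lines in the lower mode of both. With only AT4G02540 in the upper mode it was 13.28 ± 0.071 (SD, n = 19), and with only AT5G51490 in the upper mode 13.21 ± 0.070 (SD, n = 31). It was 13.12 ± 0.072 (SD, n = 22) in lines in the upper mode of both. Whether the changes at both markers depend on each other was not tested. The relation at AT4G02540 lost its call in R lines alone (-0.074, limma adjusted p = 0.151) and with the first 10 principal components of the table in the fit (-0.040, limma adjusted p = 0.51).

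**Figure D3:**
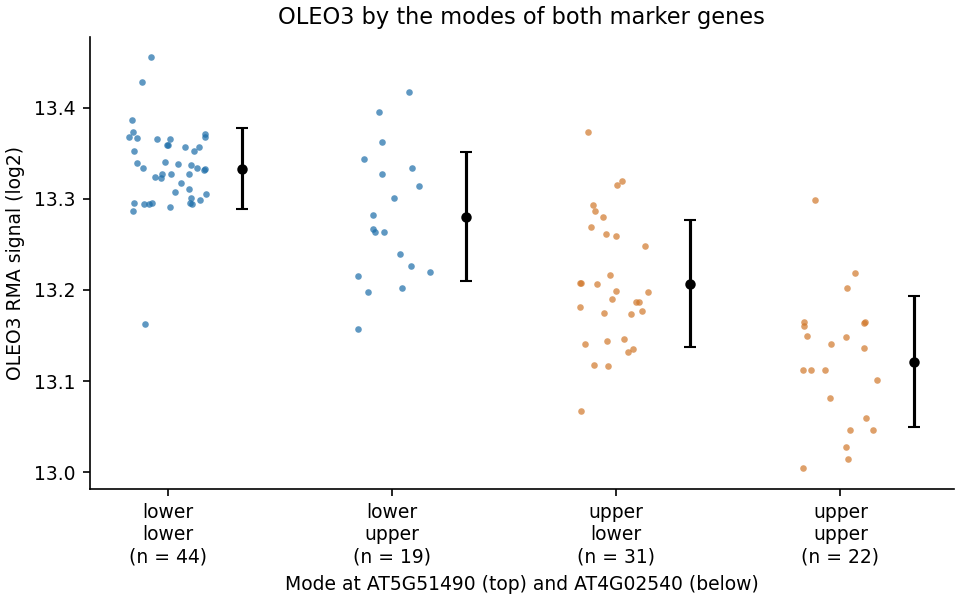
OLEO3 log2 signal of each line (points), grouped by its mode at AT5G51490 (upper label; blue lower, orange upper) and at AT4G02540 (label below it), with the mean and SD as black bars. Group means step down from 13.33 with both in the lower mode to 13.12 with both in the upper mode, and neighbouring groups overlap.

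The relation at AT5G51490 was alike in both cross directions. It was -0.15 ± 0.021 (SE) in Q lines and -0.14 ± 0.019 (SE) in R lines, and the difference between these changes was -0.0049 ± 0.028 (SE; limma adjusted p = 0.989). For AT2G25890 at its own lead marker the Q and R changes were -0.18 ± 0.078 and -0.30 ± 0.086 (SE), with a difference of 0.12 ± 0.12 (SE; limma adjusted p = 1). For AT3G01570 the difference was 0.017 ± 0.022 (SE; limma adjusted p = 0.869). No probe set passed for any of these marker-by-letter terms in limma, and the unadjusted p-values of the 3 oleosin genes were 0.861, 0.312 and 0.447.

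AT3G01570 followed no marker past the threshold. Its lead marker was AT1G03410 on chromosome 1, where the 52 lower-mode lines ran from 13.66 through a median of 13.80 to 13.90 and the 55 upper-mode lines from 13.72 through 13.82 to 13.95. The 9 lines between the modes were kept in the fit by their probability of being in the upper mode. The change was 0.033 ± 0.011 (SE; limma adjusted p = 0.058), and 8 of the 124 markers reached an unadjusted p under 0.05 in limma. After quantile normalisation was applied again, the change was 0.042 with a limma adjusted p of 0.0246, so that setting decides the call.

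On its own chromosome the best marker for AT3G01570 was IRX15 (AT3G50220), a gene of secondary wall xylan synthesis that lies 5811 places away, with 0.033 (limma adjusted p = 0.0731). Lead marker and letter took up 16.3% of its variance. Its measured neighbours AT3G01560, AT3G01520, AT3G01580 and AT3G01590 changed by between -0.030 and 0.023 at AT1G03410, with limma adjusted p-values from 0.569 to 0.977. A p above the threshold does not show that the gene lacks allelic differences, and its small SD sets the scale of what could be seen.

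AT2G25890, an oleosin gene with a lower and more variable signal, followed its own chromosome 2 more loosely than OLEO3 followed chromosome 5. Its lead marker was AFR (AT2G24540), an F-box gene of far-red light signalling on the side before it. The 50 lower-mode lines ran from 9.62 through a median of 10.17 to 10.65, the 58 upper-mode lines from 9.19 through 9.85 to 10.54, and 8 lines fell between. The overlap was wide, since 43 of the 58 upper-mode lines lay above the lowest of the lower-mode lines, and 42 of the 50 lower-mode lines lay above the upper-mode median.

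The change at AFR was -0.24 ± 0.059 (SE; limma adjusted p = 0.00474), a signal 1.18-fold lower in the upper mode, and 4.49% of all probe sets were called there, 2.07% higher and 2.42% lower in the upper mode. Of 19 markers on chromosome 2, 5 were called, and the relation did not fall off steadily with distance. AT2G28130 at 276 places on the other side gave -0.19 (limma adjusted p = 0.0311). AT2G37050 at 1448 places gave -0.20 (limma adjusted p = 0.0172). Nearer to the gene, AT2G23400 at 351 places (0.18, limma adjusted p = 0.0504) and AT2G23120 at 388 places (-0.16, limma adjusted p = 0.1) were not called. When the lead p was multiplied by the number of markers before adjustment, AT2G25890 kept its call at 0.0306 and OLEO3 at 2.06e-15, while AT3G01570 stood at 0.521, and 43.4% of all probe sets were called. Without R162 the change at AFR was -0.23 (limma adjusted p = 0.00695). The change at AFR was not called in Q lines alone (-0.18, limma adjusted p = 0.342) or R lines alone (-0.30, limma adjusted p = 0.0573), and it fell to -0.023 (limma adjusted p = 0.923) with 10 principal components in the fit.

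Beyond chromosome 2, AT2G25890 was called at 2 of 21 markers on chromosome 4. At AT4G10030 the 65 lower-mode lines ran from 9.23 through a median of 10.17 to 10.65, and the 51 upper-mode lines from 9.19 through 9.92 to 10.56. The change was -0.20 ± 0.058 (SE; limma adjusted p = 0.0199), where 5.33% of all probe sets were called (2.43% higher and 2.9% lower), and without R162 it was -0.19 (limma adjusted p = 0.031). It was not called in Q lines alone (-0.19, limma adjusted p = 0.261), in R lines alone (-0.21, limma adjusted p = 0.25) or with 10 principal components in the fit (-0.079, limma adjusted p = 0.537). With AFR in the fit, AT4G10030 gave -0.19 (limma adjusted p = 0.0267) and AT5G47800 on chromosome 5 gave -0.18 (limma adjusted p = 0.0327), in a fit where 64.5% of probe sets were called at some marker. Letter, AFR and AT4G10030 together took up 21.5% of the variance of AT2G25890.

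The genes beside AT2G25890 differed in size and direction at AFR. AT2G25870, 2 places before it, rose by 0.75 toward the upper mode (limma adjusted p = 2.49e-33), and AUR2, an Aurora kinase gene next to it, rose by 0.24 (limma adjusted p = 4.24e-11). On the far side AT2G25910 gave 0.075 (limma adjusted p = 0.055), and AT2G25920 fell by 0.13 (limma adjusted p = 0.000152). For these genes too, transcript level and a sequence difference under the probes cannot be told apart.

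The 3 oleosin genes were next compared with each other over the 116 lines. OLEO3 and AT3G01570 rose and fell together to a modest degree, with Pearson's r of 0.373 (permutation p = 4e-05, adjusted over the 3 pairs 0.00012) and Spearman's rho of 0.327 (adjusted permutation p = 0.00117). Leaving out the 2 lines farthest from the OLEO3 median gave r = 0.314. Within Q lines r was 0.492 and within R lines 0.208. Within the lower and the upper mode of AT5G51490, the marker that divides OLEO3, r was 0.303 and 0.442, so the relation was present on both sides of that division.

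OLEO3 and AT2G25890 had r = 0.170 (adjusted permutation p = 0.104) and rho = 0.201 (adjusted permutation p = 0.0476), and the value differed by letter, 0.0164 in Q lines and 0.342 in R lines. Within the lower mode of AT5G51490 that pair had r = 0.304 and within the upper mode -0.144. Without the 2 lines farthest from the OLEO3 median it was 0.185, and without R162 it was 0.186. With each array centred on its median r was 0.223 (adjusted permutation p = 0.0248), so the call rests on the scaling. AT3G01570 and AT2G25890 had r = -0.0462 (adjusted permutation p = 0.624) and rho = -0.080 (adjusted permutation p = 0.392). That pair's r was -0.028 without the 2 lines farthest from the AT3G01570 median, -0.0080 in Q lines, -0.024 in R lines and -0.046 without R162, and its sign turned, to 0.058, with arrays centred on their median.

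**Figure D4:**
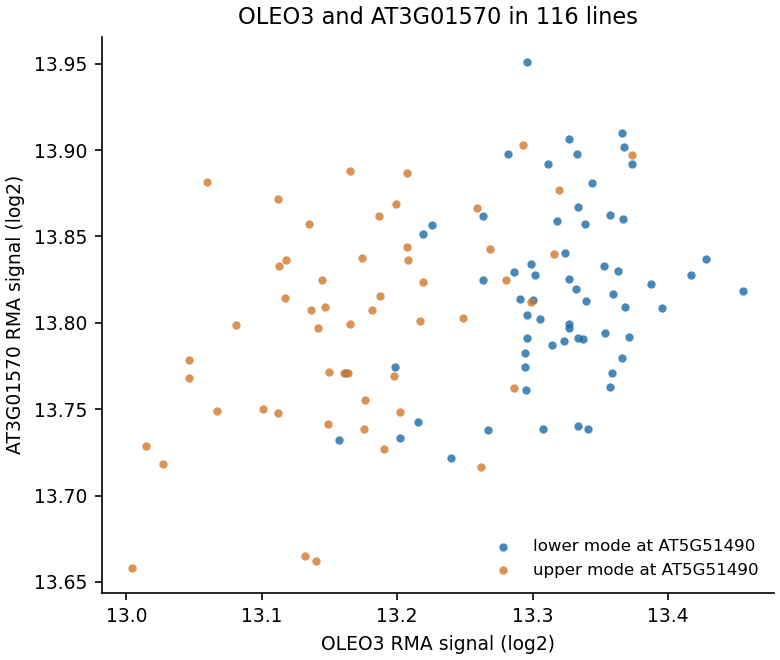
Log2 signal of OLEO3 (horizontal axis) against AT3G01570 (vertical axis) in the 116 lines, blue for the lower and orange for the upper mode at AT5G51490. The modes separate along the OLEO3 axis, and within each of them AT3G01570 tends to be higher where OLEO3 is higher, with r of 0.303 and 0.442.

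Technical measures were set beside these values. The difference between probe sets at the 3′ and the 5′ end of the GAPDH control transcript, a sign of RNA degradation, had r of 0.0915, 0.0743 and -0.0091 with OLEO3, AT3G01570 and AT2G25890. The permutation p adjusted over 6 relations lay between 0.645 and 0.923, rho lay between 0.0368 and 0.122, r without the 2 lines with the most distant differences lay between 0.063 and 0.11, and r within Q or R lines lay between -0.079 and 0.18. The array median had r of 0.0320 with OLEO3 and 0.0810 with AT3G01570 (adjusted permutation p = 0.879 and 0.645), with rho of -0.011 and 0.084, and -0.012 and 0.11 for r without the 2 lines with the most distant medians. With AT2G25890 it had r = -0.220 (adjusted permutation p = 0.103) and rho = -0.271 (adjusted permutation p = 0.0223). That relation was -0.0606 in Q lines and -0.472 in R lines, and -0.254 without the same 2 lines. Its part in the results for AT2G25890 was not tested.

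The genes most like each oleosin gene were taken by Pearson's r over the 116 lines, among 13366 other nuclear probe sets of 1 gene, as a description. For OLEO3 they lay on its own chromosome: AT5G47250 (r = 0.71), AT5G44380 (0.57), the RNA polymerase III subunit gene NRPC2 (0.57), AT5G49780 (0.56) and RL2 (AT5G45160, 0.56). The most opposed were AT5G51490 (-0.75), AT5G51500 (-0.73) and AT5G50340 (-0.67). Of 44 probe sets beyond 0.5 in size, counted as 15 above and 29 below, 41 lay on chromosome 5, where genes share their alleles in these lines.

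AT2G25890 had many more genes moving with it. The most like it were AT5G45690 (r = 0.81), AT1G70810 (0.79), AT2G47120 (0.78), AT3G57020 (0.78) and AT1G16770 (0.77), on 4 chromosomes. The most opposed were LHCB4.1, a light-harvesting protein of photosystem II (-0.71), AT1G15290 (-0.68) and AT1G09750 (-0.68). In all, 2.68% of the probe sets compared had an r beyond 0.5 in size, against 0.329% for OLEO3 and 0.0449% for AT3G01570. The first principal component of the table, which holds 12.8% of its variance, took up 40.8% of the variance of AT2G25890, against 4.11% for OLEO3 and 0.348% for AT3G01570. What that component stands for was not tested.

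AT3G01570 had few close companions: 6 probe sets had r above 0.5 and none below -0.5. The highest were AT5G51560 (r = 0.52), AT3G20015 (0.51), AT5G43020 (0.51), TBL25 of the trichome birefringence-like family (0.51) and AT5G16240, a stearoyl-ACP desaturase of fatty acid synthesis (0.50). The lowest were AT4G01790 (-0.43), the ubiquitin-conjugating enzyme gene UBC16 (-0.42) and AT4G33080 (-0.42).

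Lists of seed genes, of which 40 genes had a probe set of their own here, show how the 3 differ. AT2G25890 correlated positively with all 11 measured late embryogenesis genes, which encode protectants made as the seed prepares to dry, with a median r of 0.396 against 0.0497 over all nuclear probe sets. The dehydrin gene LEA (0.727), AT4G21020 (0.655) and AT3G15670 (0.622) were highest. All 5 storage protein genes were positive as well, with a median of 0.421, led by AT1G03890 (0.607). Both photosynthesis markers were negative, LHCB4.1 at -0.706 and PORB, an enzyme of chlorophyll synthesis, at -0.654. The 3 seed coat genes lay between -0.261 and -0.190. Without R162 the medians were 0.439 for the 11 late embryogenesis genes, all positive, 0.386 for the storage protein genes, -0.659 for the photosynthesis markers, -0.193 for the seed coat genes and 0.112 for fatty acid synthesis.

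For OLEO3 and AT3G01570 the late embryogenesis medians were -0.032 and -0.105, with 5 and 3 of the 11 genes positive. Storage protein genes were positive in 4 of 5 cases for each, with medians of 0.235 and 0.068, and all 3 seed coat genes were negative for both, with medians of -0.171 and -0.099. Both photosynthesis markers were negative for OLEO3 (-0.116 and -0.050) and positive for AT3G01570 (0.118 and 0.154). Their highest list medians were those of fatty acid synthesis, 0.364 and 0.396, where AT2G25890 had 0.113. For OLEO3 all 4 measured members were positive, from 0.311 to 0.509, the highest being the acyl-ACP thioesterase gene FaTA, and for AT3G01570 3 of 4 were, up to 0.502. AT3G01570 also had r of 0.470 with the vicilin-like storage protein gene AT4G36700 and 0.461 with AT3G02630, an acyl-ACP desaturase. The median over all nuclear probe sets was 0.0403 for OLEO3 and 0.0309 for AT3G01570. The points of each r are the same 116 seed pools, and the differences between these lists were not tested.

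**Figure D5:**
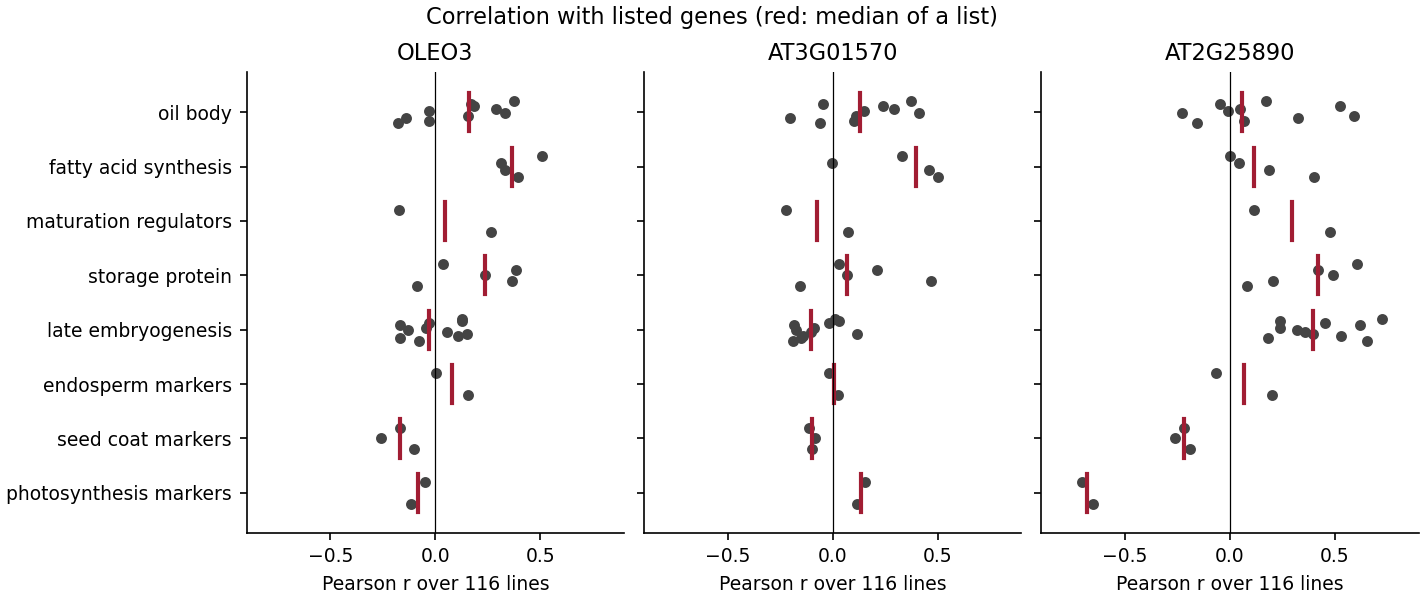
Pearson's r over the 116 lines between each oleosin gene (3 panels) and each measured gene of 8 lists of seed genes (points, 1 list per row), with the median of each list as a red bar. Late embryogenesis and storage protein genes lie to the right for AT2G25890 with medians of 0.396 and 0.421, its photosynthesis markers lie to the left, and fatty acid synthesis genes lie to the right for OLEO3 and, in 3 of 4, for AT3G01570.

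Other oil body genes were measured in 8 cases beside the 3 oleosin genes. AT3G18570, a further oleosin, averaged 10.98 ± 0.21 (SD, n = 116), correlated with AT2G25890 (r = 0.527) more than with OLEO3 (0.183) or AT3G01570 (0.242), and was called at no marker (lead AT2G28130, -0.11, limma adjusted p = 0.0873). The lipid droplet associated protein genes AT1G67360 and AT3G05500 averaged 11.42 ± 0.16 and 12.07 ± 0.096 (SD, n = 116), and AT2G47780, of the same family, had a low 4.69 ± 0.15. AT3G05500 had r of 0.411 with AT3G01570, 0.332 with OLEO3 and -0.227 with AT2G25890. In these plants the droplet-associated family is best known from vegetative tissue, where it takes the place of oleosins.

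Among genes that form droplets or remove their coat, AT5G16460, which encodes a seipin of droplet formation, averaged 6.05 ± 0.31 (SD, n = 116) and had r = 0.591 with AT2G25890. The triacylglycerol lipase gene SDP1 averaged 7.50 ± 0.19 and its relative SDP1-LIKE 4.16 ± 0.16 (SD, n = 116). AT4G10790, which encodes an adaptor that helps draw oleosins from the droplet for breakdown, averaged 7.45 ± 0.27 (SD, n = 116) and had r of -0.180, -0.062 and -0.159 with OLEO3, AT3G01570 and AT2G25890. Of these 8 genes, 6 were called at 1 marker or more, where 67.6% of all probe sets were. In the Q and R comparison 0 of the 11 measured oil body genes passed limma's threshold, 2 had an unadjusted p under 0.05, and the median difference was -0.014 against -0.0042 over all probe sets.

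The oil body and other seed lists were then read at the markers that OLEO3 followed. At AT5G51490, 2.59% of all probe sets rose and 3.1% fell. Of the 8 other oil body genes 0 rose and 1 fell, the seipin gene AT5G16460 on chromosome 5, with -0.22 (limma adjusted p = 0.00423). Of the fatty acid synthesis genes, 1 of 4 fell there, FaTA with -0.093 (limma adjusted p = 0.0215). In the seed coat list 1 of 3 rose, the anthocyanin and tannin gene DFR on chromosome 5 with 0.28 (limma adjusted p = 0.0132). The median change was -0.015 over the 8 oil body genes and -0.080 over the fatty acid synthesis genes, against -0.0066 over all probe sets. The summed seed coat level had a median of 9.38 in the lower mode (8.78 to 10.17) and 9.45 in the upper mode (8.77 to 10.81). No storage protein, late embryogenesis, maturation regulator, endosperm or photosynthesis gene of the lists was called at that marker in limma.

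At AT4G02540, 5.58% of all probe sets rose and 6.92% fell. Of the 4 fatty acid synthesis genes 3 fell together with OLEO3, the thioesterase gene FATB by -0.20 (limma adjusted p = 9.55e-07), the desaturase gene AT5G16240 by -0.15 (limma adjusted p = 0.000736) and FaTA by -0.11 (limma adjusted p = 0.00965). The lipid droplet associated protein gene AT1G67360 fell by 0.15 on the log2 scale (limma adjusted p = 4.01e-05). AT4G10790 rose by 0.20 (limma adjusted p = 0.00671), and these were the 2 of 8 oil body genes called. AT4G10790 lies on chromosome 4, as the marker does, and its own lead marker was AT4G10030. The median change was -0.13 over the fatty acid synthesis genes and 0.041 over the oil body genes, against -0.0066 over all probe sets. The transcription factor gene EEL fell by 0.20 (limma adjusted p = 2.06e-06), as 1 of 2 maturation regulators. The other, BZIP53, gave 0.057 (limma adjusted p = 0.53). The storage protein genes PAP85 and AT4G36700 gave -0.084 (limma adjusted p = 0.00108) and -0.076 (limma adjusted p = 0.0298), 2 of 5 in that list. AT4G36700 lies on chromosome 4 as well.

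In the opposite direction at AT4G02540, 2 of 11 late embryogenesis genes rose, AT3G17520 by 0.66 (limma adjusted p = 4.97e-05) and AT3G15670 by 0.44 (limma adjusted p = 0.0459). PORB, on chromosome 4 like the marker, rose by 0.29 (limma adjusted p = 0.0232), as 1 of 2 photosynthesis markers. The other, LHCB4.1, gave 0.065 (limma adjusted p = 0.62). The summed photosynthesis level, over 2 genes, had a median of 11.10 in the lower mode (10.50 to 11.74) and 11.18 in the upper mode (10.19 to 11.97). LHCB4.1 averaged 11.03 and PORB 7.35, so this sum mostly follows LHCB4.1. The summed seed coat level was 9.39 (8.77 to 10.17) and 9.53 (8.79 to 10.81), and the summed endosperm level 4.91 (4.68 to 5.19) and 4.88 (4.67 to 5.14). Their part in the OLEO3 result was not tested.

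At AFR, where AT2G25890 was lower in the upper mode, 2.07% of all probe sets rose and 2.42% fell. Late embryogenesis genes fell in 3 of 11 cases and rose in none. These were AT4G21020 with -0.31 (limma adjusted p = 0.00146), the dehydrin gene LEA with -0.16 (limma adjusted p = 0.034) and AT3G15670 with -0.45 (limma adjusted p = 0.0365). Both maturation regulators measured fell, BZIP53 by 0.14 (limma adjusted p = 0.0174) and EEL by 0.11 (limma adjusted p = 0.0458). The storage protein gene AT1G03890 fell by 0.097 (limma adjusted p = 0.00129). Of the genes named at AFR, LEA and EEL lie on chromosome 2, as AFR does. SDP1-LIKE fell by 0.10 on the log2 scale (limma adjusted p = 0.022), as 1 of the 8 other oil body genes. LHCB4.1, 1 of 2 photosynthesis markers, rose by 0.18 (limma adjusted p = 0.0324). The median change was -0.090 over the late embryogenesis genes and -0.026 over the 5 storage protein genes, against -0.0099 over all probe sets. The summed photosynthesis level had a median of 11.04 in the lower mode (10.19 to 11.65) and 11.25 in the upper mode (10.50 to 11.97). Its part in the AT2G25890 result was not tested.

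At AT4G10030, where 2.43% of all probe sets rose and 2.9% fell, 0 of the 11 late embryogenesis genes were called, the closest being LEA with -0.14 (limma adjusted p = 0.0611). EEL fell, with -0.14 (limma adjusted p = 0.00214), as 1 of 2 maturation regulators. PAP85, with -0.068 (limma adjusted p = 0.0133), was 1 of 5 storage protein genes to fall, and FATB, with -0.11 (limma adjusted p = 0.0426), 1 of 4 fatty acid synthesis genes. AT4G10790, the oleosin turnover adaptor, rose by 0.37 (limma adjusted p = 9.2e-14) at this marker, which lies on its own chromosome. PORB, also on chromosome 4, rose by 0.31 (limma adjusted p = 0.00848), as 1 of 2 photosynthesis markers. The seed coat gene BAN, 1 of 3 in its list, rose by 0.24 (limma adjusted p = 0.0405). The summed seed coat level was 9.34 (8.79 to 10.17) in the lower mode and 9.53 (8.77 to 10.81) in the upper mode, and the summed photosynthesis level was 11.03 (10.50 to 11.74) and 11.21 (10.19 to 11.97). Their part in the fall of AT2G25890 was not tested.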

How the data were processed

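The authors deposited 1 table of log2 signals, summarised by RMA per the submitters' processing notes; no RMA version or annotation build is named in those notes. Of its 22810 probe sets, 64 are array controls and 22746 were tested. Probe sets matched to 1 gene numbered 13513, all found in the RefSeq gene table, which gave symbols and gene order only. Sequences of these genes are not printed.

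Markers were probe sets whose signal fitted 2 normal distributions at least 4 SD and 1 log2 unit apart, with at least a share of 0.2 of lines in the smaller and a gain of at least 10 in the Bayesian information criterion. The probability of the upper mode entered a linear model with the letter (R 4.3.3, limma 3.58.1, lmFit and eBayes), adjusted by Benjamini-Hochberg over all 2820504 pairs, a marker's own probe set left out. A probability above 0.9 or below 0.1 set a line's mode for description. Correlations used two-sided permutation tests with 100000 resamples (Python 3.11.15, numpy 2.4.6, pandas 2.3.3, scipy 1.17.1; plots with matplotlib 3.10.9). RNA quality was read from GAPDH controls, because the actin control differences followed markers (r up to 0.73 in size). An older ubiquitin pair did so too. The GAPDH differences followed markers less closely, with r up to 0.42 in size, so they are not free of genotype. The other ubiquitin pair, with r up to 0.29 in size, was not used. This choice was made after seeing the data. The scan was tested on simulated data, with 50 changed probe sets for each size of change. It called 8% of changes of 0.5 SD, 80% of 1 SD and 100% of 1.5 SD. Of unchanged probe sets it called 0.067%. Small changes were thus mostly missed in the simulation. Only 200 of its 22746 probe sets were changed, while 67.6% were called in the deposited values. Benjamini-Hochberg adjustment is stricter where fewer probe sets change, so these shares do not carry over to the real scan.

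Named genes were the 3 oleosin genes, their lead markers, the 5 highest and 3 lowest by r, the 2 nearest measured genes on either side, the measured oil body genes, and up to 3 genes of each other list with the smallest p at a called lead marker. Additional genes and markers along chromosomes 2, 4 and 5 were chosen after their values were seen. Of 12 listed triacylglycerol assembly genes, 0 had a probe set of 1 gene in the rows used. Members and lists were chosen with earlier results of these data known. Precision is limited by the number of arrays.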

Additional observations from a re-analysis of the deposited data

How the results depend on the processing

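Of 128 values recomputed under an alternative, 8 lost a call, 3 gained one, 5 counts moved by more than 1.5 times and 1 reversed; all others kept their direction and their side of the threshold. OLEO3 at AT5G51490 kept its call under all 14 alternatives run, between -0.15 and -0.14. Centring arrays on their median moved AT3G01570 in Q against R lines to -0.038 (limma adjusted p = 0.0393), gave OLEO3 with AT2G25890 r = 0.223 (adjusted permutation p = 0.0248), and turned AT3G01570 with AT2G25890 to r = 0.058. Renewed quantile normalisation gave AT3G01570 at AT1G03410 0.042 (limma adjusted p = 0.0246). AT2G25890 at AFR gave -0.023 with 10 components, -0.18 in Q lines and -0.30 in R lines, none called. Probe sets called in the scan, 15371, became 8821 with 10 components, 8328 in Q lines, 9043 in R lines and 9868 with the lead p multiplied by the number of markers; fewer lines were fitted in Q or R alone. Q against R calls, 698, became 33 with 10 components. The cause of the other shifts was not tested. At AT4G10030, AT2G25890 lost its call with 10 components and in either letter alone. The setting without R162, correlations included, and the multiplied lead p were chosen after seeing the data. No paired analysis was possible because line numbers are names of separate lines, not shared replicates. Leaving out single lines in turn was not run, since each letter holds 57 lines or more.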
